A study of Mus musculus with 6 samples.

Results

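The genes of cell division were measured here in cells sorted as microglia, the resident macrophages of the brain. They were a set of 38 genes taken by their symbols from a table of 20129 genes. All 38 were in the table, and all 38 were among the 11900 genes that had 1 CPM or more (a gene's reads per 1000000 of the library) in no fewer than 3 of the 6 libraries and were therefore tested; 36 of the 38 reached 1 CPM in all 6 libraries, Plk1 in 5 and Ccne1 in 3. By role, 14 were grouped as S-phase members (3 regulators of the step from G1 into S, 11 genes of DNA replication and nucleotide supply). Another 22 were grouped as mitotic members (12 kinases, cyclins and checkpoint genes, 10 genes of the spindle, kinetochore and chromosomes). Hmgb2 and Stmn1 were kept apart because neither has its main role in one phase. Genes of either group can also act in another phase.

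A dividing cell first switches on genes that the E2F factors drive, whose products load the replicative helicase, make nucleotides and copy the DNA. It later switches on genes for the cyclins, kinases, motors and kinetochore proteins that separate the chromosomes, many of which are read through CCAAT boxes and a promoter word known as the cell cycle gene homology region (CHR). Microglia divide slowly in the healthy brain and more often around amyloid plaques, so transcripts of these genes in a bulk sample can come from a minority of its cells.

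The libraries came from C57BL6/J mice aged 5 months. One group was 5xFAD (3 libraries, replicates 4, 5 and 6), a strain in which the neuronal Thy1 promoter drives mutant human transgenes and which deposits amyloid. The other was Il3-/-5xFAD (3 libraries, replicates 1, 2 and 3), which carries the same transgenes and lacks the gene for interleukin-3, a cytokine of blood cell formation. Both groups therefore carry the transgenes, and no library without them was compared. Each library held cells sorted as microglia from the brains of 4 mice (2 male and 2 female), taken as 7AAD-, CD45+ and CD11b+ cells. The p-values therefore measure the spread between 3 pools per group. Neutrophil and monocyte transcripts were also present in each library, as given below. The comparison asked which transcripts differed when interleukin-3 was absent in amyloid-bearing mice.

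Library depth ran from 27970850 to 37605490 reads. For Il3, the deleted gene, 5xFAD replicates 4, 5 and 6 gave 54, 61 and 29 reads, and there were 0 reads in each Il3-/-5xFAD library, where a count of 0 allows up to 0.0909 to 0.107 CPM (counting error only). The 10 microglial markers, Cx3cr1, P2ry12 and Tmem119 among them, summed to between 35223 and 37264 CPM in 5xFAD and between 36855 and 40182 CPM in Il3-/-5xFAD. Over the whole of the tested table, 105 genes (0.882%) passed limma's threshold, an adjusted p under 0.05. Of the 10 microglial markers 0 passed it, and 9 were higher in Il3-/-5xFAD. Of these, 3 had an unadjusted p under 0.05 (16.5% of all tested genes), and 4 had groups that did not overlap (21.2% of all tested genes).

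The promoters of the members are shown first, because S-phase and mitotic genes are known to carry different words there. RefSeq windows of GRCm38.p6, from 250 bases before the transcription start to 50 after it, were matched by symbol for 31 of the 38 members (12 S-phase, 18 mitotic and Hmgb2). This build is another than the mm9 of the deposited values. 3 kinds of word were searched on both strands: the CHR as TTTGAA or TTCGAA, the CCAAT box as CCAAT, and E2F words as TTTCCCGC, TTTCGCGC, TTTGCCGC or TTTGGCGC. Matches of different words were allowed to overlap. The 250 bases before the start are printed for 2 helicase genes, 4 mitotic genes and Ccne1, each 5′ to 3′ in the direction of its gene, with matches in capitals (ATTGG is CCAAT on the other strand). Positions count from the transcription start and give the first base of a match.
Mcm6 (chr1:128359706-128359955, minus strand): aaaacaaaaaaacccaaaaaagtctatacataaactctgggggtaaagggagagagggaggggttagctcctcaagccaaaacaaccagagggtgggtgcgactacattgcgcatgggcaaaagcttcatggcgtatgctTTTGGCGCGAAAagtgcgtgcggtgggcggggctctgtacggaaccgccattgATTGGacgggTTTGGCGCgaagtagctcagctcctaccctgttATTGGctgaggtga
Mcm5 (chr8:75109259-75109508, plus strand): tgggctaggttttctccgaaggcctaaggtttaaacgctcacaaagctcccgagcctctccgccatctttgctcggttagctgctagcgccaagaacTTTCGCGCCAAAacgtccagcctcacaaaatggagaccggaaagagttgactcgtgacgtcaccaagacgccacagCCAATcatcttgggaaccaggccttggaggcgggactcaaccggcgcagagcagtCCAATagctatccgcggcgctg
Cdk1 (chr10:69352913-69353162, minus strand): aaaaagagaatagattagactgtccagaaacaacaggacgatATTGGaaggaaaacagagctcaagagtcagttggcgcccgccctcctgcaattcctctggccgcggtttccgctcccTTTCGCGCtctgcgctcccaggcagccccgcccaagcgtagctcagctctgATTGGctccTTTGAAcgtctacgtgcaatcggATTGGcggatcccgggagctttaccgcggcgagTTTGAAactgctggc
Top2a (chr11:99024190-99024439, minus strand): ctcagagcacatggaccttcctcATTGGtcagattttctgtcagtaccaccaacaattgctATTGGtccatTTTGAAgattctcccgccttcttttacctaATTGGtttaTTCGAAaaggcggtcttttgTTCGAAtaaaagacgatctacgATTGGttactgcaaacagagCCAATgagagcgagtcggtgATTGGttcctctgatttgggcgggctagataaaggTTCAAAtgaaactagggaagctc
Mki67 (chr7:135716380-135716629, minus strand): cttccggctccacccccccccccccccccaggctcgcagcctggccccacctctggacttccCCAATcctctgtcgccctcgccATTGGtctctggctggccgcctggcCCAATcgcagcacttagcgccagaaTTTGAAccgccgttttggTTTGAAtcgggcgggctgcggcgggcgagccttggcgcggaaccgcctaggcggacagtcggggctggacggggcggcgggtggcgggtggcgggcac
Cdc20 (chr4:118437344-118437593, minus strand): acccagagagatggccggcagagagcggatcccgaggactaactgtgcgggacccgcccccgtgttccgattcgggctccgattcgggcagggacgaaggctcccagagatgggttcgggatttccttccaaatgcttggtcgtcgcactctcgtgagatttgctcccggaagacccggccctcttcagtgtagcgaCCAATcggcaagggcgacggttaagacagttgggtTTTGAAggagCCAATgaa
Ccne1 (chr7:38107491-38107740, minus strand): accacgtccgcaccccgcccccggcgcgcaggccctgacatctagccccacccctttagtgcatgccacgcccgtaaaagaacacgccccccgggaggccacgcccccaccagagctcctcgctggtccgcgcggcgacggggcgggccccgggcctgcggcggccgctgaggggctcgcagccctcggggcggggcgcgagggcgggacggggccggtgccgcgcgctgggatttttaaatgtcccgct

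In Mcm6 and Mcm5 the long run of capitals holds E2F words on both strands that overlap, and Mcm6 has a further E2F word with its first base 47 bases before the start. Cdk1 holds all 3 kinds of word: an E2F word at -131, CHR words at -71 and -15, and CCAAT boxes at -208, -80 and -48. Top2a has 4 CHR words and 6 CCAAT boxes. Mki67 has CHR words at -116 and -98, downstream of its 3 CCAAT boxes, and Cdc20 has its single CHR word at -18, between CCAAT boxes at -53 and -8. The window of Ccne1 holds none of these words, which says only that these letters are not in it.

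CHR words were in the windows of 14 of 18 mitotic members (77.8%), of 2 of 12 S-phase members (16.7%, Mcm2 and Mcm7) and of 20.2% of 17491 protein-coding genes with a window. A pair or more of CCAAT boxes stood in 10 of 18 mitotic members (55.6%), 5 of 12 S-phase members (41.7%) and 14.6% of protein-coding genes. E2F words were in 4 of 12 S-phase members (33.3%, Mcm3, Mcm5, Mcm6 and Mcm7), in 1 of 18 mitotic members (5.56%, Cdk1) and in 3.29% of protein-coding genes. Windows of Birc5, Nusap1, E2f1, Tyms and Tk1 held no match either. These shares describe letters in windows of fixed length, and binding was not measured.

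**Figure D1:**
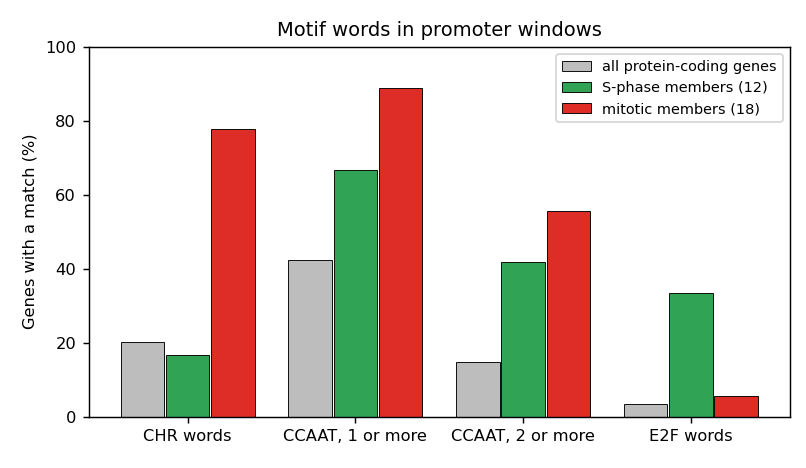
Share of genes (percent, y axis) whose promoter window holds each word (x axis), for protein-coding genes, for 12 S-phase members and for 18 mitotic members. CHR words stand in 77.8% of mitotic and 16.7% of S-phase members, and E2F words in 5.56% and 33.3%.

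No cell cycle member passed the test for a difference between the genotypes. Of 38 members, limma called 0 at that threshold (against 0.882% of all tested genes), edgeR's quasi-likelihood test called 0 (0.504% of all genes) and DESeq2 called 0 (5.09% of all genes). At an unadjusted p under 0.05 limma marked 1 member, Ccne1, where 16.5% of all tested genes were marked. Ccne1 was also the only member whose groups did not overlap (21.2% of all genes), and it was lower in Il3-/-5xFAD. The median difference, Il3-/-5xFAD minus 5xFAD on the log2(CPM + 1) scale, was -0.06 over the 38 members, with 24 below 0, against -0.000587 over all tested genes. For the 14 S-phase members it was -0.04 (9 below 0) and for the 22 mitotic members -0.07 (13 below 0).

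The data bound most of these differences. The 95% interval lay within a 2-fold change of CPM + 1 in either direction for 31 of 38 members (12 of 14 S-phase and 17 of 22 mitotic). This scale understates changes of low genes, so for these the same interval can reach past 2-fold in CPM. It lay within 1.5-fold of CPM + 1 for 9 S-phase members (Rrm1, Mcm2 to Mcm7, Pcna and Tyms) and for 4 mitotic members (Mki67, Kif11, Kif23 and Prc1). Intervals of Birc5, Aurka, Plk1, Cenpe, Cenpf, Rrm2 and Ccne1 reached past 2-fold on this scale already. The median distance from the estimate to the end of its interval was 0.37 for S-phase and 0.63 for mitotic members.

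**Figure D2:**
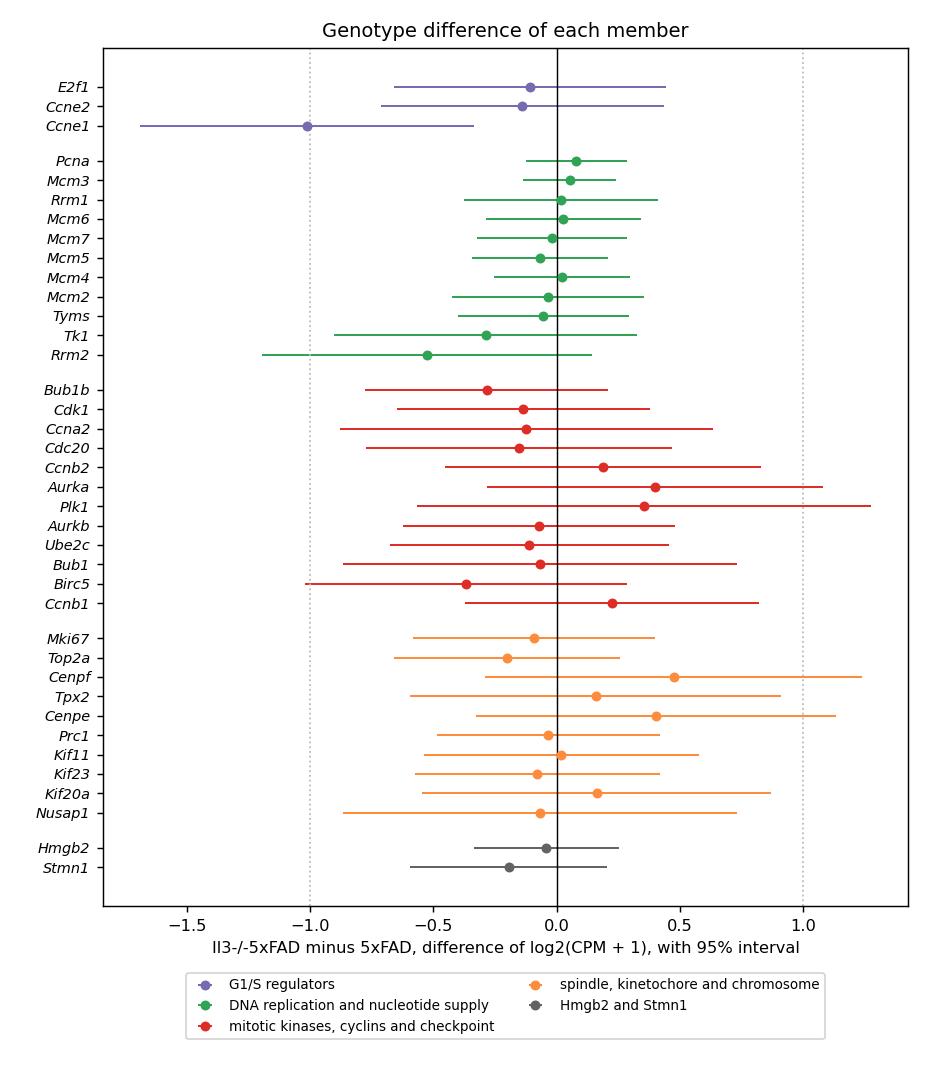
Difference of log2(CPM + 1), Il3-/-5xFAD minus 5xFAD (x axis), for each of the 38 members (y axis), as limma's estimate (point) with its 95% interval (line). Dotted lines mark a 2-fold change of CPM + 1, which for low genes is a larger change in CPM. Ccne1, at -1.01, is the only member whose interval does not reach 0.

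The regulators of entry into S phase were low in all libraries. Ccne1, which encodes cyclin E1, the partner of the kinase CDK2 at the start of S phase, was at 1.43, 2.02 and 2.47 CPM in 5xFAD replicates 4, 5 and 6 against 0.638, 0.781 and 0.0606 CPM in Il3-/-5xFAD replicates 1, 2 and 3, an order kept for all values below. Every 5xFAD library lay above every Il3-/-5xFAD library, and the lowest value was 2 reads, with a Poisson 95% interval of 0.00734 to 0.219 CPM. The difference was -1.01 ± 0.31 (SE; limma adjusted p = 0.126). On recovered reads the log2 difference was -2.004 by edgeR (adjusted p = 0.204) and -2.01 by DESeq2 (adjusted p = 0.0871). Ccne1 reached 1 CPM in the 5xFAD libraries alone, so it entered the test through the group in which it was higher, and leaving out any 5xFAD library took it below the filter.

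Ccne2, which encodes the related cyclin E2, was at 2.29, 3.69 and 2.21 CPM in the 5xFAD pools against 3.06, 1.99 and 2.06 CPM in the Il3-/-5xFAD pools. The groups overlapped, and the difference was -0.14 ± 0.26 (SE; limma adjusted p = 0.846). E2f1, a transcription factor that turns on S-phase genes, was at 4.54, 6.87 and 6.33 CPM in the 5xFAD pools against 4.60, 4.12 and 7.91 CPM in the Il3-/-5xFAD pools. Its highest and its lowest library both belonged to Il3-/-5xFAD (-0.11 ± 0.25, limma adjusted p = 0.879).

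Replication genes ranged from steady to variable between libraries, with a median ratio of the highest to the lowest of 1.33 in 5xFAD and 1.18 in Il3-/-5xFAD (1.21 and 1.26 for all tested genes). Pcna, which encodes the sliding clamp of the replicative polymerases, was at 86.4, 91.9 and 79.7 CPM in the 5xFAD pools against 92.0, 98.4 and 82.9 CPM in the Il3-/-5xFAD pools, a difference of 0.08 ± 0.09 (SE; limma adjusted p = 0.721). Mcm3, a subunit of the helicase that opens the DNA, was at 68.7, 72.4 and 71.0 CPM in the 5xFAD pools against 70.9, 78.6 and 71.0 CPM in the Il3-/-5xFAD pools (0.05 ± 0.09, limma adjusted p = 0.814). In both genes the groups overlapped, and the interval of Mcm3 ran from -0.14 to 0.24. Mcm6 was at 23.9, 31.4 and 34.4 CPM in the 5xFAD pools against 31.4, 27.2 and 32.2 CPM in the Il3-/-5xFAD pools (0.03 ± 0.14, limma adjusted p = 0.949). The other helicase genes differed by between -0.07 (Mcm5) and 0.02 (Mcm4).

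Per kilobase of transcript, the 6 helicase genes were not at one level. Mcm3 was at 23.8 ± 1.12 CPM per kb (SD over 6 libraries), and in each library it stood 2.24 to 3.15 times above the next highest helicase gene. The other 5 lay between 6.43 (Mcm2) and 8.83 CPM per kb (Mcm7), within 1.32 to 1.70 times of each other in each library. In the complex the subunits stand in equal number. Pcna was the highest member per length, at 58.3 ± 4.51 CPM per kb, and Ccne1 the lowest, at 0.617 ± 0.454.

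Among genes of nucleotide supply, those of the large and the small subunit of ribonucleotide reductase stood at different levels. Rrm1 encodes the large subunit, a protein kept through the cell cycle. Its transcript was at 20.9, 35.0 and 36.8 CPM in the 5xFAD pools against 29.8, 31.4 and 30.1 CPM in the Il3-/-5xFAD pools (0.02 ± 0.18, limma adjusted p = 0.976). The Il3-/-5xFAD values lay close together, inside the range of the 5xFAD values. Rrm2 encodes the small subunit, a protein made in S phase and destroyed in mitosis. The Rrm2 transcript was at 3.43, 10.7 and 6.52 CPM in the 5xFAD pools against 3.93, 4.65 and 3.67 CPM in the Il3-/-5xFAD pools. Its highest libraries were 5xFAD replicates 5 and 6 and its lowest was 5xFAD replicate 4, and the difference of -0.53 ± 0.31 did not pass (limma adjusted p = 0.427). Per kilobase, Rrm1 exceeded Rrm2 by 1.80 times in 5xFAD replicate 5 and by 4.51 times in Il3-/-5xFAD replicate 3, the ends of the range. Tk1, the thymidine kinase of S phase, differed by -0.29 ± 0.28, and Tyms, thymidylate synthase, by -0.05 ± 0.16.

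**Figure D3:**
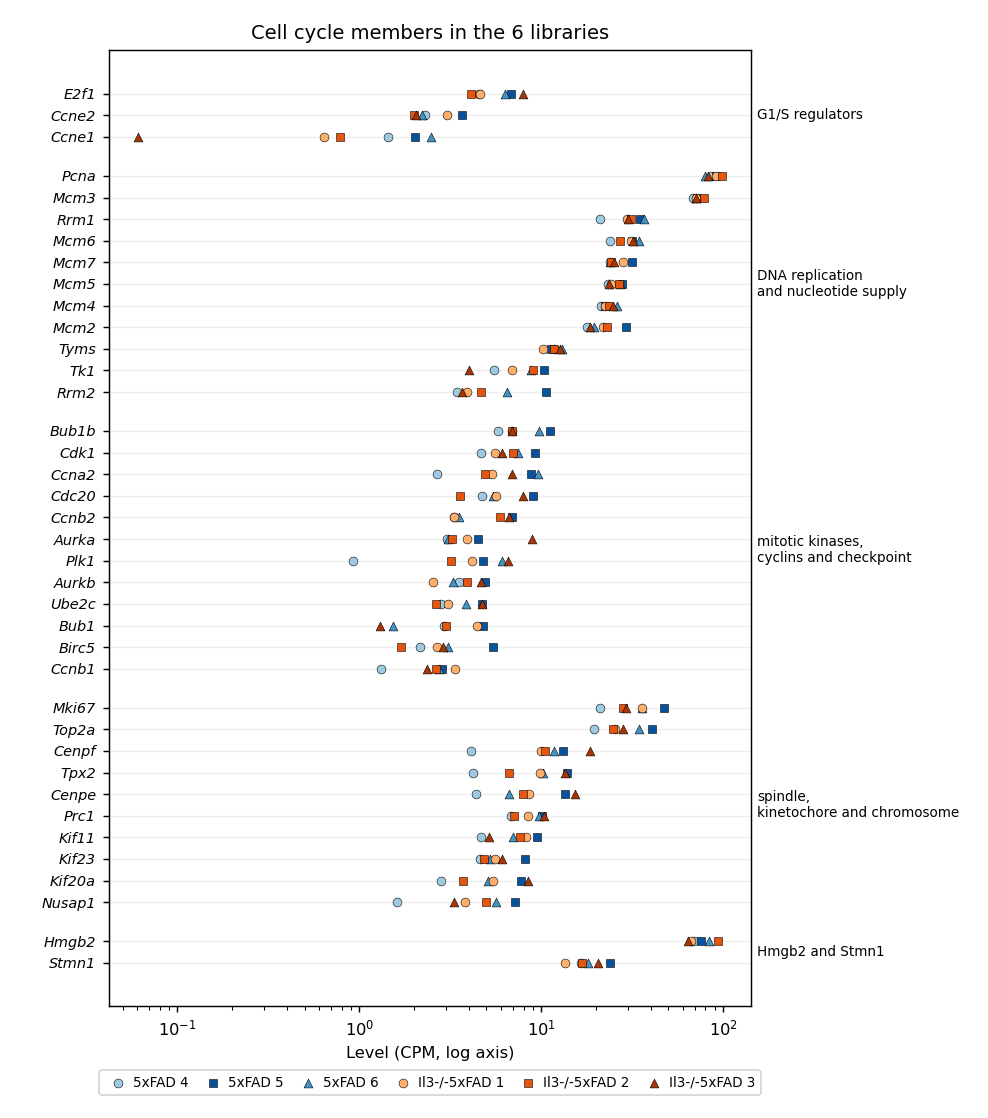
Level of each member (y axis, grouped by role) in CPM on a log axis (x axis), 1 marker per library, blue for 5xFAD and orange to brown for Il3-/-5xFAD. Markers of Pcna and Mcm3 lie close together and those of Rrm2 and Tk1 are spread, and 5xFAD replicate 4, the palest circle, is the lowest of its group for 33 of the 38 genes.

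Mitotic kinases, cyclins and checkpoint genes were low, and 5xFAD replicate 4 was the lowest library of its group for 10 of the 12. Cdk1, the kinase that starts mitosis, was at 4.68, 9.26 and 7.47 CPM in the 5xFAD pools against 5.61, 6.96 and 6.09 CPM in the Il3-/-5xFAD pools (-0.14 ± 0.24, limma adjusted p = 0.829). Its partner cyclin A2, encoded by Ccna2, was at 2.68, 8.75 and 9.65 CPM in the 5xFAD pools against 5.37, 4.90 and 6.88 CPM in the Il3-/-5xFAD pools (-0.12 ± 0.35, limma adjusted p = 0.901). In both genes the Il3-/-5xFAD values fell between those of 5xFAD replicate 4 and those of 5xFAD replicates 5 and 6.

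Bub1b, which encodes the checkpoint kinase BubR1, was at 5.79, 11.1 and 9.79 CPM in the 5xFAD pools against 6.92, 6.89 and 6.91 CPM in the Il3-/-5xFAD pools. The 3 Il3-/-5xFAD values differed by less than their counting error, and the genotype difference was -0.28 ± 0.23 (SE; limma adjusted p = 0.579). Cdc20, an activator of the anaphase-promoting complex, was at 4.72, 9.06 and 5.45 CPM in the 5xFAD pools against 5.64, 3.59 and 7.91 CPM in the Il3-/-5xFAD pools (-0.15 ± 0.28, limma adjusted p = 0.845). Here the groups overlapped widely.

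Among the other kinases, Plk1 had the highest ratio between libraries of the 22 mitotic members in 5xFAD. It was at 0.9295, 4.78 and 6.06 CPM there and at 4.16, 3.20 and 6.61 CPM in Il3-/-5xFAD (0.35 ± 0.42, limma adjusted p = 0.725). Aurka, which acts at the spindle poles, was at 3.04, 4.48 and 3.06 CPM in the 5xFAD pools against 3.90, 3.23 and 8.94 CPM in the Il3-/-5xFAD pools, so its difference of 0.40 ± 0.31 came with 1 high library, Il3-/-5xFAD replicate 3. Aurkb, the kinase of the chromosomal passenger complex, differed by -0.07 ± 0.25.

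The B-type cyclins, partners of Cdk1, lay on the other side of 0 from it, at 0.22 ± 0.27 for Ccnb1 and 0.19 ± 0.29 for Ccnb2. Birc5, which encodes survivin of the passenger complex, had the largest negative difference of the mitotic members. It was at 2.15, 5.47 and 3.08 CPM in the 5xFAD pools against 2.69, 1.70 and 2.88 CPM in the Il3-/-5xFAD pools (-0.37 ± 0.30, limma adjusted p = 0.585). Bub1, the checkpoint kinase that works with Bub1b, and Ube2c, which adds ubiquitin together with the anaphase-promoting complex, differed by -0.07 ± 0.37 and -0.11 ± 0.26. Adjusted p of these 12 genes ran upward from 0.568.

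For all 10 spindle, kinetochore and chromosome genes, 5xFAD replicate 4 was the lowest of the 6 libraries. Mki67, which encodes the Ki-67 protein that coats mitotic chromosomes and is the usual marker of cycling cells, was at 21.2, 47.2 and 36.1 CPM in the 5xFAD pools against 36.1, 28.3 and 29.2 CPM in the Il3-/-5xFAD pools. Its highest and lowest libraries were both 5xFAD, and the difference was -0.09 ± 0.23 (SE; limma adjusted p = 0.885). Top2a, the topoisomerase that untangles sister chromatids, was at 19.6, 40.6 and 34.4 CPM in the 5xFAD pools against 25.6, 24.8 and 28.2 CPM in the Il3-/-5xFAD pools (-0.20 ± 0.21, limma adjusted p = 0.686). It showed the same order, with 5xFAD replicate 4 below and 5xFAD replicates 5 and 6 above all Il3-/-5xFAD libraries.

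Cenpf, which links kinetochores to microtubules, had the largest positive difference of the mitotic members. It was at 4.11, 13.2 and 11.8 CPM in the 5xFAD pools against 10.04, 10.5 and 18.7 CPM in the Il3-/-5xFAD pools (0.47 ± 0.35, limma adjusted p = 0.543). The kinetochore motor gene Cenpe was at 4.40, 13.6 and 6.67 CPM in the 5xFAD pools against 8.596, 7.92 and 15.3 CPM in the Il3-/-5xFAD pools (0.40 ± 0.33). Both were highest in Il3-/-5xFAD replicate 3 and lowest in 5xFAD replicate 4.

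Tpx2, which activates Aurora A at the spindle, was at 4.22, 13.8 and 10.2 CPM in the 5xFAD pools against 9.87, 6.64 and 13.6 CPM in the Il3-/-5xFAD pools (0.16 ± 0.35, limma adjusted p = 0.869). The kinesin genes Kif11 (spindle bipolarity), Kif20a and Kif23 (cytokinesis) differed by 0.02 ± 0.26, 0.16 ± 0.32 and -0.08 ± 0.23. Prc1, which bundles microtubules between the separating chromosomes, differed by -0.03 ± 0.21. Nusap1, a microtubule-binding protein of the spindle, was at 1.61, 7.18 and 5.64 CPM in the 5xFAD pools against 3.79, 4.97 and 3.30 CPM in the Il3-/-5xFAD pools (-0.07 ± 0.37).

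Hmgb2 and Stmn1 are high in dividing cells but not bound to one phase. Hmgb2, a chromatin protein that bends DNA, was at 69.5, 75.4 and 83.5 CPM in the 5xFAD pools against 67.1, 93.5 and 63.8 CPM in the Il3-/-5xFAD pools (-0.04 ± 0.13, limma adjusted p = 0.916). Stmn1, which holds free tubulin, was at 16.6, 23.96 and 18.1 CPM in the 5xFAD pools against 13.5, 16.8 and 20.6 CPM in the Il3-/-5xFAD pools (-0.19 ± 0.18, limma adjusted p = 0.648). Neither gene separated the groups. Per kilobase both were among the 4 highest members, at 28.7 ± 4.27 for Hmgb2 and 17.2 ± 3.41 for Stmn1 (SD over 6 libraries).

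S-phase sums varied less between pools of one genotype than mitotic sums. The 14 S-phase genes summed to 315, 387 and 358 CPM in the 5xFAD pools against 350, 366 and 339 CPM in the Il3-/-5xFAD pools (353 ± 36.1 and 352 ± 13.7, SD, n = 3). The 22 mitotic genes summed to 112, 248 and 191 CPM in the 5xFAD pools against 173, 155 and 204 CPM in the Il3-/-5xFAD pools (184 ± 68.4 and 177 ± 25.1, SD, n = 3). For both sums the group means lay closer together than the spread within either group. In bulk samples, fewer cycling cells and less of each RNA per cycling cell cannot be told apart.

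The median ratio of the highest to the lowest library of a group was 2.11 for mitotic members in 5xFAD and 1.75 in Il3-/-5xFAD. It was 1.48 and 1.22 for S-phase members, and 1.21 and 1.26 for all tested genes. Mitotic members also had fewer reads, with a median level of 5.90 CPM against 22.6 CPM for S-phase members, and the part of the level in the spread was not tested. The SD between 5xFAD libraries was over 2 times the counting SD for all 22 mitotic members, and between Il3-/-5xFAD libraries for 17 of them. The SD was larger in 5xFAD than in Il3-/-5xFAD for 19 of 22 mitotic and 9 of 14 S-phase members, a difference that was not tested. The mean log2 level of S-phase members exceeded that of mitotic members by 1.51, 0.97 and 1.21 in 5xFAD and by 1.11, 1.26 and 0.80 in Il3-/-5xFAD (1.23 ± 0.27 and 1.06 ± 0.24, SD, n = 3), so the balance of both phases overlapped between the genotypes.

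**Figure D4:**
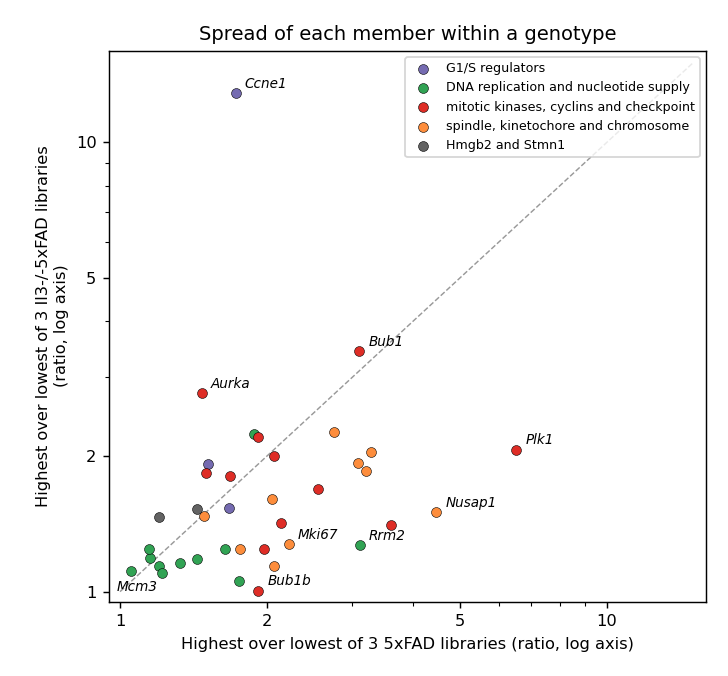
Ratio of the highest to the lowest of 3 libraries for each member, in 5xFAD (x axis) and in Il3-/-5xFAD (y axis), both on log axes; the dashed line marks equal ratios. Most mitotic members lie right of the line, Plk1 farthest, and Ccne1 lies far above it because 1 Il3-/-5xFAD library held 2 reads.

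The mitotic genes moved together between pools. Within 5xFAD, replicate 4 was the lowest library for 20 of 22 mitotic members (90.9%) and 11 of 14 S-phase members, against 37.0% of all tested genes. Replicate 5 was the highest of the group for 20 of 22 mitotic members, against 33.0% of all tested genes. Of all 6 libraries, 5xFAD replicate 4 was the lowest for 24 of the 38 members (63.2%) and for 14.6% of all tested genes. The level in 5xFAD replicate 5 was a median of 2.07 times that in replicate 4 for mitotic members (1.39 to 5.15 times) and 1.37 times for S-phase members. Within Il3-/-5xFAD, replicate 3 was the highest library for 15 of 22 mitotic members, against 39.3% of all tested genes. Replicate 2 was the lowest of that group for 14 of 22, against 36.6% of all tested genes.

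The sign of the mitotic median turned on single libraries. Without 5xFAD replicate 4 the median of the mitotic members was -0.22 with 18 of 22 below 0, and without 5xFAD replicate 5 it was 0.19 with 2 of 22 below 0. It was 0.04 when 5xFAD replicate 6 was left out and 0.01 when Il3-/-5xFAD replicate 2 was. In none of these cases was a member called by limma. Without 5xFAD replicate 4, 6 of 37 members had an unadjusted limma p under 0.05, against 1 of 38 with all libraries. With all libraries, 16.5% of all tested genes had such a p. That share was not counted without 5xFAD replicate 4, where genes called over the whole table rose from 105 to 224. The S-phase median moved less, to -0.15 without 5xFAD replicate 4 and 0.04 without 5xFAD replicate 5.

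The summed markers of immature neutrophils ranked the libraries of each genotype as the mitotic sum did. The 10 genes of immature neutrophils, cells that still divide or have just stopped, summed to 524, 1657 and 1060 CPM in the 5xFAD pools against 374, 96.5 and 443 CPM in the Il3-/-5xFAD pools. The order was, for both sums, replicates 4, 6 and 5, from low to high, in 5xFAD, and replicates 2, 1 and 3 in Il3-/-5xFAD. Other sums shared the order within a single genotype. In 5xFAD these were the S-phase, neutrophil, monocyte, oligodendrocyte progenitor and astrocyte sums, and in Il3-/-5xFAD the microglial, B cell and endothelial sums. Each order rests on 3 libraries. Elane, the neutrophil elastase gene of promyelocytes, was at 1.18, 17.8 and 4.15 CPM in the 5xFAD pools against 0.336, 0.107 and 0.0303 CPM in the Il3-/-5xFAD pools, and Mpo, the myeloperoxidase gene, at 2.29, 37.2 and 6.54 CPM and 1.34, 0.0355 and 0.394 CPM. Gene by gene, all 10 were lowest in replicate 4 and highest in replicate 5 within 5xFAD. Within Il3-/-5xFAD replicate 2 was the lowest for 8 of 10, but replicate 3 was the highest for 6 and replicate 1 for 4, Elane and Mpo among them, and Elane was lowest in replicate 3. Of this list, Ctsg was at 0 in Il3-/-5xFAD replicate 3 and no other gene was at 0.

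Between the genotypes the 2 sums parted. Of the 9 tested genes of the immature neutrophil list, limma called 1 (Camp), lower in Il3-/-5xFAD (0.882% of all tested genes were called). All 9 had an unadjusted p under 0.05 (16.5% of all tested genes), while the mitotic sum differed by less than its spread. At least Elane among the 9 reached 1 CPM in the 5xFAD libraries alone. It thus entered the test through the group in which it was higher. Of the other lists, limma called 4 of 7 tested neutrophil genes, 1 of 6 monocyte genes, 3 of 10 T and NK cell genes and 2 of 4 choroid plexus genes. All of these were lower in Il3-/-5xFAD. It called 0 of 10 microglial, 0 of 5 endothelial, 0 of 6 border macrophage and 0 of 3 tested astrocyte and neural progenitor genes. In the B cell and oligodendrocyte progenitor lists it called 0, with 1 gene tested in each. Summed levels of neutrophil genes ran from 1425 to 2472 CPM in 5xFAD and from 824 to 1127 CPM in Il3-/-5xFAD, and those of monocyte genes from 132 to 277 CPM and from 71.5 to 143 CPM. For T and NK cell genes the ranges were 96.6 to 183 CPM and 47.7 to 62.4 CPM, and 5xFAD replicate 5, the highest for mitotic genes, was the lowest of its group. The choroid plexus genes summed to 253, 182 and 515 CPM in 5xFAD and to 63.1, 130 and 77.0 CPM in Il3-/-5xFAD, highest in 5xFAD replicate 6. The part of these cells in the cell cycle values was not tested.

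**Figure D5:**
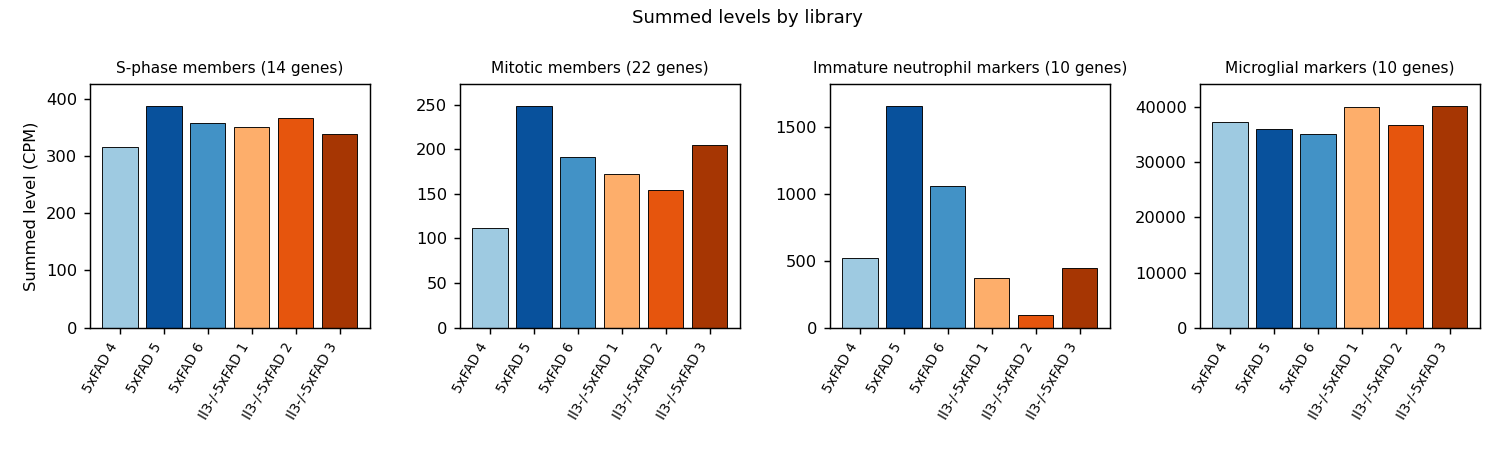
Summed level in CPM (y axis, each panel from 0) in the 6 libraries (x axis) for S-phase members, mitotic members, immature neutrophil markers and microglial markers. The mitotic and the immature neutrophil sums rank the libraries alike within each genotype. The S-phase sum shares that order within 5xFAD and the microglial sum within Il3-/-5xFAD. Of these sums, only that of immature neutrophils is lower in all Il3-/-5xFAD libraries than in all 5xFAD libraries.

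Of the markers of neural cells, some were close to 0 and others were not. Pdgfra, the receptor that defines oligodendrocyte progenitors, was at 0 to 0.547 CPM, Olig2 at 0 to 0.178 CPM, and Dcx, a marker of newborn neurons, had reads in 1 of 6 libraries, at 0.178 CPM. Cspg4, also of the progenitor list but made by pericytes and other cells too, was at 5.33, 17.98 and 17.1 CPM in the 5xFAD pools against 2.01, 3.55 and 4.09 CPM in the Il3-/-5xFAD pools (-1.65 ± 0.38, limma adjusted p = 0.0611, called by DESeq2). With it the 5 genes of the oligodendrocyte progenitor list summed to 6.76 to 19.7 CPM in 5xFAD and 2.55 to 4.67 CPM in Il3-/-5xFAD. The 6 genes of the astrocyte and neural progenitor list summed to 139 to 164 CPM and 128 to 149 CPM, most of it Slc1a3. The part of these cells in the cell cycle values was not tested.

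The wider cell cycle pathway was read from 106 further genes in 7 lists, 100 of which were tested. Limma called 0 of them (0.882% of all genes), edgeR 0 (0.504% of all genes) and DESeq2 2 (5.09% of all genes). At an unadjusted p under 0.05 stood 6 of the 100, 4 lower and 2 higher in Il3-/-5xFAD, against 16.5% of all genes. The median difference was -0.01, with 50 genes on each side of 0. In the list of 25 kinetochore, condensin and cytokinesis genes, 24 were lowest within 5xFAD in replicate 4, the pattern of the mitotic members, and the summed level was 167, 282 and 237 CPM in the 5xFAD pools against 214, 211 and 237 CPM in the Il3-/-5xFAD pools.

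Upstream of Ccne1, the D cyclins carry growth signals into the cycle. Ccnd2 and Ccnd3 are named here after their values had been seen. Ccnd2 was at 18.6, 27.8 and 39.0 CPM in the 5xFAD pools against 14.98, 10.7 and 12.7 CPM in the Il3-/-5xFAD pools, and Ccnd3 at 37.8, 43.1 and 43.3 CPM and 30.8, 24.9 and 29.9 CPM. Neither gene's groups overlapped, as for 21.2% of all tested genes, and the limma adjusted p of both lay just above 0.05. Over the 100 tested pathway genes, 6 did not overlap and were lower in Il3-/-5xFAD, and 7 did not overlap and were higher. The difference of Ccnd2 was -1.05 ± 0.23 (SE; limma adjusted p = 0.0543, edgeR adjusted p = 0.0700, DESeq2 adjusted p = 0.000202) and that of Ccnd3 -0.52 ± 0.12 (limma adjusted p = 0.0624, edgeR adjusted p = 0.0724, DESeq2 adjusted p = 0.00470). Ccnd2 passed limma without 5xFAD replicate 4 (adjusted p = 0.0102) or Il3-/-5xFAD replicate 1 (adjusted p = 0.0457), and Ccnd3 without Il3-/-5xFAD replicate 3 (adjusted p = 0.0408). With any other library left out neither passed, up to an adjusted p of 0.290 for Ccnd2 and 0.318 for Ccnd3, both without 5xFAD replicate 6. With no filter the values were 0.2601 and 0.225. T and NK cell genes were lower in the same libraries, as given above, and their part in these values was not tested. Ccnd1, the remaining D cyclin gene, was at 138 ± 14.9 CPM in the 5xFAD pools against 153 ± 4.33 CPM in the Il3-/-5xFAD pools (SD, n = 3; 0.16 ± 0.09, limma adjusted p = 0.421).

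Of the genes of highest CPM in each pathway list, limma called none. Cdk4, the kinase bound by D cyclins and a gene of their list, was at 71.5 ± 3.91 CPM in the 5xFAD pools. In the Il3-/-5xFAD pools it was at 62.0 ± 4.02 CPM (SD, n = 3), a difference of -0.20 ± 0.09 (limma adjusted p = 0.298). Its groups did not overlap, as for 21.2% of all tested genes. The kinase inhibitor genes Cdkn1a and Cdkn1b differed by 0.17 ± 0.12 and -0.02 ± 0.11, and the pocket protein genes Rb1 and Rbl2, which hold E2F factors in check, by 0.14 ± 0.10 and 0.06 ± 0.09. Orc2 and Orc4, subunits of the origin recognition complex, differed by -0.04 ± 0.11 and 0.20 ± 0.13. At the replication fork, Rpa1, which covers single-stranded DNA, differed by -0.06 ± 0.10 and the clamp loader gene Rfc1 by 0.21 ± 0.10. The separase gene Espl1 and the checkpoint gene Bub3 differed by -0.07 ± 0.11 and -0.12 ± 0.11, and Incenp of the passenger complex and the condensin gene Smc4 by 0.09 ± 0.15 and -0.18 ± 0.14. The limma adjusted p of Rfc1 was 0.292, and those of the 11 genes other than Rfc1 and Cdk4 ran from 0.464 to 0.960. Cdk4 and Rfc1 had an unadjusted limma p under 0.05, as did 16.5% of all tested genes.

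Some member values are uncertain because reads could fall on another gene. Stretches of 50 bases that also occur in transcripts of other genes made up 42.1% of the Ccnb1 transcript, 36.5% of Stmn1, 31.8% of Pcna, 26.0% of Mcm7, 21.9% of Hmgb2, 11.4% of Cdc20 and 10.1% of Tyms. Ccnb1-ps shared 34.1% of Ccnb1, Pcna-ps2 31.8% of Pcna and Tyms-ps 4.3% of Tyms. These are pseudogenes by name, and the kind of the other sharing genes was not looked up. The pseudogene closest to Pcna had at most 0.107 CPM in the table. Exons on the opposite strand overlapped 29.3% of the exon bases of Kif20a, 22.8% of Ube2c, 17.4% of Ccne2, 12.5% of Ccna2 and 11.1% of Prc1. The library kit keeps strand, but the strand setting of the counting is not given in the sources used here.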

How the data were processed

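Cells sorted as microglia from 6 pools of mice were measured by RNA sequencing from libraries of a directional kit that selects polyA RNA, per the labels' protocols. The authors deposited CPM values in 1 table of 20129 genes. STAR, HTSeq, edgeR and mm9 appear in the submitters' processing notes, without versions or roles. For annotation, counting mode and filters, nothing is stated in those sources. Every value was a whole multiple of the worth of 1 read (0.0266 to 0.0358 CPM; 100% of values, tolerance 0.01 reads), so reads were recovered. Library pairs within a group differed by more than sampling noise (chi-square over its degrees of freedom at least 22.1).

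The main test was limma 3.58.1 (R 4.3.3, two-sided, with a mean-variance trend) on log2(CPM + 1) for genes at 1 CPM or more in 3 or more libraries, with Benjamini-Hochberg adjustment over 11900 genes. Fold changes on this scale understate those of low genes. The main test was also run on simulated reads with a single fixed spread and no shift shared by the genes of a library. That run cannot tell how the test behaves on these pools. The alternatives changed the pseudocount (0.25 or 5), dropped the filter or set it at a mean of 5 CPM, and used median-ratio scaling, no trend, robust estimation, 1 library fewer (each in turn), and edgeR 4.0.16 and DESeq2 1.42.0 on recovered reads. The members, gene lists and rules were chosen with earlier results of these data known, so lists are described without tests. Values in each library are given for Mki67, Top2a and the 4 most abundant members of each role list, and further members were added after their values were seen. Of each pathway list the 2 most abundant genes are named, as none was called. Knl1 and Chil3 were found under the older symbols Casc5 and Chi3l3. Chil3 stands in both the immature neutrophil and the monocyte list. Lengths and shared stretches came from GENCODE vM21 transcripts, the longest coding one per gene. Promoters came from RefSeq (GRCm38.p6).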

Additional observations from a re-analysis of the deposited data

How the results depend on the processing

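The count of called members was 0 in the main limma fit and in all 15 alternatives, with 27 members tested at a mean of at least 5 CPM and 37 or 38 elsewhere. Ccne1 had 2 to 93 reads per library, and its limma adjusted p ran from 0.122 to 0.263 over the limma settings that tested it, and the DESeq2 value was 0.0871. The count of called genes over the whole table moved far more, from 105 to 8 with no filter, 68 at a mean of at least 5 CPM, 64 with median-ratio scaling, 10 without the variance trend, 60 by edgeR and 605 by DESeq2, and it ran from 11 (without 5xFAD replicate 6) to 587 (without Il3-/-5xFAD replicate 3). The cause was not tested. The S-phase median ran from -0.15 to 0.04 and the mitotic median from -0.22 to 0.19 with 1 library left out.

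Signs of single genes were not stable, and none of these genes was called. Rrm1 was at -0.021 by edgeR and -0.0211 by DESeq2 against 0.02 by limma. With 1 library left out, the log2 difference changed sign and ran from -0.40 to 0.16 for Mki67, -0.50 to 0.0069 for Top2a, -0.61 to 0.15 for Ccna2, -0.37 to 0.053 for Cdk1, -0.28 to 0.48 for Tpx2, -0.38 to 0.10 for Cdc20, -0.23 to 0.16 for Rrm1, -0.12 to 0.13 for Mcm6, -0.21 to 0.0602 for Hmgb2, -0.28 to 0.0386 for Ccne2, -0.35 to 0.0473 for E2f1, -0.13 to 0.0618 for Cdkn1b, -0.0837 to 0.0217 for Orc2 and -0.0227 to 0.20 for Incenp. Where an arm kept 2 libraries, the spread was pooled over both arms. No paired analysis was possible because the groups share no replicate number.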
